A study of Nothobranchius furzeri with 20 samples.

Results

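A module of 200 brain genes separated 5 of the 10 young turquoise killifish from the other 5, and the line ran across the exercise groups. Of 26739 genes in the deposited table, 18153 averaged 1 CPM or more (counts scaled to a common library total) and were scored, and the members hold the 200 highest scores. The score was the gap, in log2(CPM + 0.5), between the lowest fish of one set and the highest fish of the other. The first set was exercised replicates 1, 3 and 5 and unexercised replicates 2 and 5, and the second set was exercised replicates 2 and 4 and unexercised replicates 1, 3 and 4. Both sets therefore mix exercised and unexercised fish. Sets and genes were chosen by the CPM values of these same 9-week fish, so their separation is a description and was not tested. Of the 200 members, 197 were higher in the second set and 3 were higher in the first.

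The turquoise killifish (Nothobranchius furzeri) is an annual fish that completes its life within months and is used to study ageing of the brain. Bulk RNA of a whole organ mixes neurons, glia, vessels and blood, so a gene active in 1 cell type or 1 brain region is read together with all others. For that reason fewer cells of a type and less RNA per cell cannot be told apart in any value given here. A swim tunnel makes fish swim against a current and serves as controlled physical exercise.

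All 20 libraries came from the brain of male fish of the strain MZM-04/10p. At 9 weeks 5 fish had no exercise and 5 had exercised in a swim-tunnel, and all 10 fish of 27 weeks were labelled swim-tunnel. Unexercised fish of 27 weeks were not analysed here. The libraries are called fish below, although the labels do not say that they were separate fish; p-values therefore reflect the spread among libraries, which may be technical.

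Counts per library summed to between 15048627 and 34843199, and 21440 to 22032 genes had counts. In the first set of young fish the totals ran from 15048627 to 26684196, and in the second set from 20557058 to 34843199, with medians of 18462248 and 29774339, so the second set was sequenced more deeply although the ranges overlapped. Genes with counts had medians of 21571 and 21831 in these sets. The share of the 10 most counted genes was 3.39% to 3.72% in the first set and 3.05% to 3.59% in the second. Among exercised fish alone the library totals did not overlap, at 15048627 to 18462248 in the first set against 20557058 and 34843199 in the second. Among unexercised fish they did, at 23019802 and 26684196 against 22260804 to 29891279. The part of depth in the separation was not tested. Replicate 8 of the 27-week group stood apart, with 10.4% of its counts in its 10 most counted genes against 3.10% to 3.62% in the other 27-week fish. Its median over all 18153 genes lay 0.45 below the median of the 27-week fish on the log2 scale, so results that include it are also given without it.

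Members carry only deposited identifiers. None of the 26739 identifiers matched a name or accession in the RefSeq gene table, so no role, cell type or sequence is given for any member, and the brain label could not be checked against marker genes. The sample titles carry running numbers whose meaning no source used here gives. In that order, by which replicates are numbered here, the exercised 9-week fish alternate between the sets. The unexercised ones alternate as well, except that replicates 3 and 4 both belong to the second set. Whether the split follows that order was not tested.

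The lead gene of the 197 was Nfu_g_1_020553. In the second set it stood at 31.1 and 24.4 CPM in exercised replicates 2 and 4, and at 27.6, 21.6 and 6.62 CPM in unexercised replicates 1, 3 and 4. In the first set it stood at 0.704, 0.532 and 0.513 CPM in exercised replicates 1, 3 and 5, and at 1.01 and 2.09 CPM in unexercised replicates 2 and 5. Both exercise groups thus held fish with few and fish with many reads of this gene, from 8 counts in exercised replicate 3 to 1082 counts in exercised replicate 2. Its 27-week values ran from 0.105 CPM to 19.2 CPM with a median of 3.57 CPM. The highest 3 were replicates 4, 2 and 3, and the lowest 4 were replicates 8, 9, 1 and 6, and 4 of the young fish stood above every old fish.

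The next gene was Nfu_g_1_007046. Its levels were 30.7 and 24.9 CPM in exercised replicates 2 and 4, and 25.1, 22.0 and 10.0 CPM in unexercised replicates 1, 3 and 4. The fish of the first set stood at 2.22, 3.12 and 2.22 CPM in exercised replicates 1, 3 and 5, and at 1.57 and 3.82 CPM in unexercised replicates 2 and 5. At 27 weeks the levels ran from 1.03 to 20.9 CPM with a median of 6.44 CPM. Replicates 2, 4 and 3 were the highest and replicates 9, 8, 1 and 6 the lowest of the old fish, the same replicates as for Nfu_g_1_020553 though in another order.

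**Figure D1:**
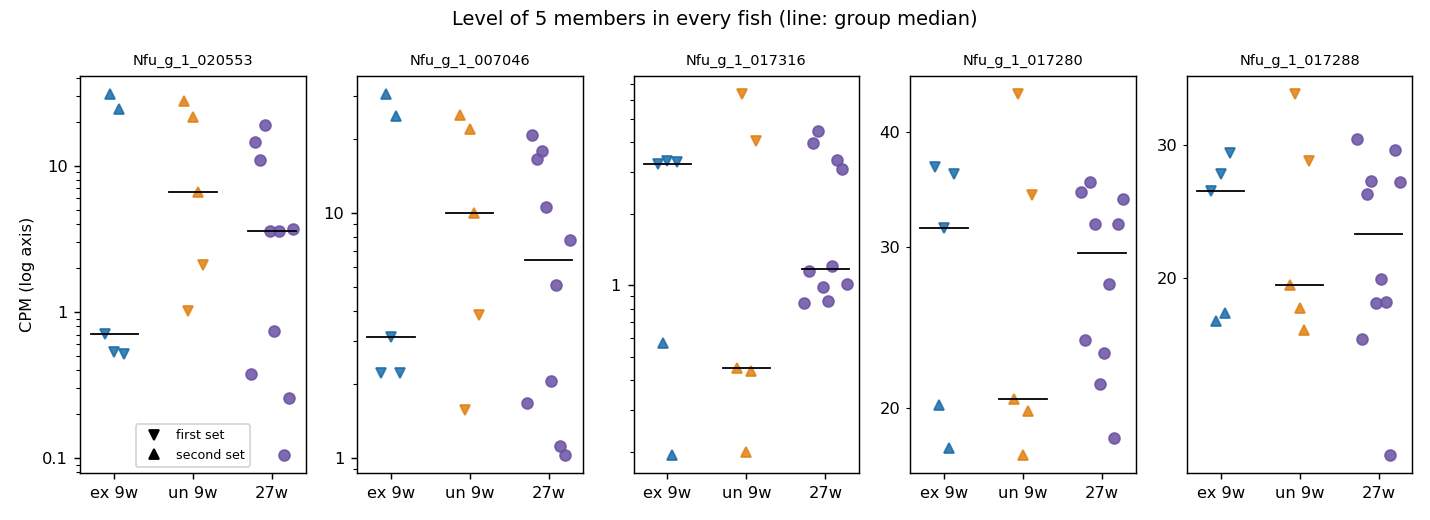
Level in CPM, on a log axis, of the 2 leading genes higher in the second set and of all 3 genes higher in the first set. Each point is 1 fish, triangles mark the sets the rule used at 9 weeks, circles mark 27-week fish, and lines mark group medians; Nfu_g_1_020553 runs from 0.513 to 31.1 CPM among exercised 9-week fish alone.

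Scores in the module ran from 0.33 to 1.8 on the log2 scale, with a median of 0.46, which is 1.25-fold to 3.49-fold in CPM + 0.5 and understates the ratio of CPM in genes of low level. The last 3 members had scores of 0.330, 0.328 and 0.327, and the first 3 genes outside had 0.327, 0.326 and 0.326. The threshold therefore fell in a continuous run of values and marks no break. Across all 18153 genes the sets did not overlap for 1157, of which 918 were higher in the second set and 239 in the first.

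The gap was set by a pair of fish in most genes. Unexercised replicate 4 was the lowest fish of the second set in 184 of the 197 genes (93.4%). Unexercised replicate 5 was the highest fish of the first set in 156 (79.2%). Both fish had no exercise, and both lay between the others: their medians over the 197 genes were 0.24 above and 0.25 below the middle of the gap on the log2 scale. The other 4 fish of the second set had medians of 0.73 to 0.96 above the middle, and the other 4 of the first set had medians of 0.66 to 0.89 below it.

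Those distances can be read from the 9-week fish one by one. Exercised replicates 2 and 4 and unexercised replicate 1 formed a close upper trio, with medians of 0.96, 0.92 and 0.94, and unexercised replicate 3 followed at 0.73. Exercised replicates 1, 3 and 5 lay at -0.76, -0.66 and -0.75, and unexercised replicate 2 at -0.89. The quartiles over genes overlapped within the upper trio and within the 4 lower fish. They show how the genes differ, not the uncertainty of a fish, and the order inside each was not tested. Unexercised replicate 2 was the lowest fish of the first set in 108 of the 197 genes (54.8%). The highest of the second set was exercised replicate 2 in 78, unexercised replicate 1 in 54, exercised replicate 4 in 50 and unexercised replicate 3 in 15. With unexercised replicates 4 and 5 left out, 4 fish against 4, the 200 highest scores ran from 1.09 to 4.05, 199 were higher in the second set, and 60.5% were among the members.

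**Figure D2:**
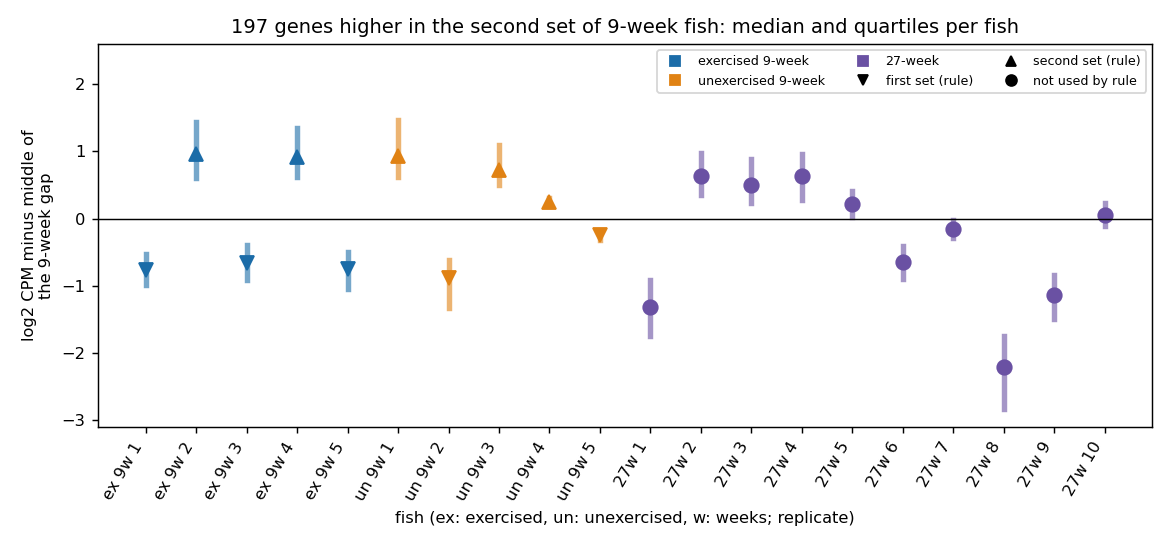
Distance of each fish from the middle of the 9-week gap, in log2 CPM, as the median (symbol) and quartiles (bar) over 197 genes. Exercised and unexercised 9-week fish lie on both sides by construction, and the 10 fish of 27 weeks, which the score did not use, spread from -2.21 to 0.64.

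The 27-week fish took no part in the score, only in the mean of 1 CPM, and they did not lie on 1 side. In 5 of the 10 the median of the 197 genes was above the middle of the 9-week gap and in 5 below it. Replicates 2, 4 and 3 were highest, at 0.64, 0.63 and 0.50, with quartiles of 0.35 to 0.98, 0.28 to 0.97 and 0.23 to 0.88. These quartiles overlapped, but they show spread over genes, and the order of the 3 fish among themselves was not tested. Replicate 5 followed at 0.22, with quartiles of 0.03 to 0.42.

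Replicates 10 and 7 lay in the gap that parted the young fish. Replicate 10 was at 0.05 and replicate 7 at -0.15, and 60.4% and 62.9% of the 197 genes respectively had values strictly between the sets. For replicate 5 that share was 45.2%. Intermediate levels were thus shared by most of the genes in replicates 10 and 7.

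Replicates 6, 9, 1 and 8 were the lowest, at -0.64, -1.13, -1.31 and -2.21. In these fish 182, 194, 192 and 195 of the 197 genes were at or below the highest fish of the first set. Replicates 9 and 1 went further down than any young fish in many genes: 61.4% and 74.6% of the 197 were below every 9-week fish, and in replicate 8 the share was 94.9%. The same share over all 18153 genes was not computed, and the median of replicate 8 over all of them was itself 0.45 below that of the 27-week fish. Scaled by TMM factors, replicate 8 lay at -1.89, and replicates 9 and 1 at -1.13 and -1.35. Going up, no 27-week fish exceeded every young fish in more than 10 of the 197 genes. Both bounds came from the 9-week fish by whose values the genes were chosen.

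The genes moved together among the old fish. Against the median of the 27-week fish for each gene, a measure the score did not use, replicate 2 was above in 194 of 197 genes (98.5%), replicate 3 in 193 and replicate 4 in 195. Replicate 5 was above in 170 and replicate 10 in 167. The remaining fish were below in most genes, since replicate 7 was above in 59, replicate 6 in 5, replicates 8 and 9 in 1 each and replicate 1 in 0. Over all 18153 genes the same share lay between 45.0% and 59.1% in the 9 fish other than replicate 8, and at 19.5% in replicate 8. The 197 genes were chosen in 1 direction, whereas all genes pool both, so that share does not show whether other genes also moved together.

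**Figure D3:**
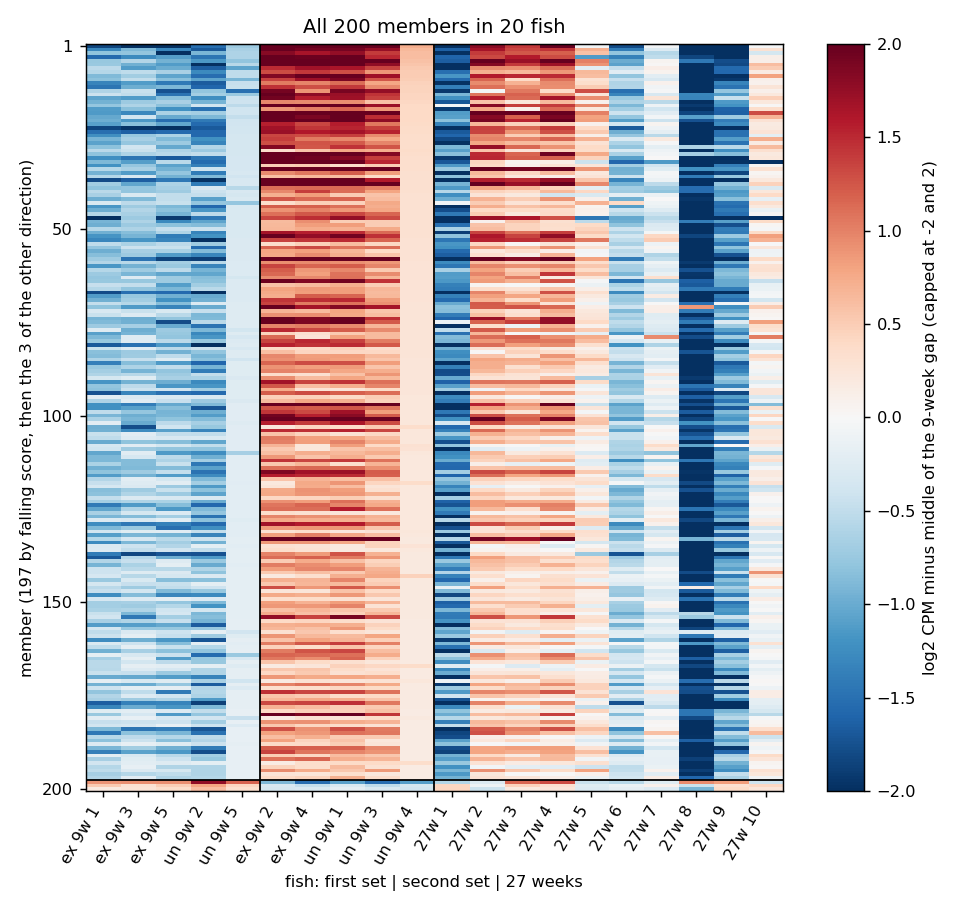
All 200 members (rows) in 20 fish (columns), as log2 CPM minus the middle of the 9-week gap of each gene; colours are capped at -2 and 2 and black lines part the first set, the second set and the 27-week fish. The 197 genes change colour by whole columns at 27 weeks, with replicates 2, 3 and 4 high, replicates 1, 8 and 9 low and replicates 7 and 10 near the middle.

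Within that pattern, single genes differed in which fish was highest or lowest. The highest 27-week fish was replicate 2 in 86 genes, replicate 4 in 74 and replicate 3 in 23, which leaves 14 genes led by replicates 5, 7 or 10. The lowest was replicate 8 in 181 genes. Without replicate 8 it was replicate 1 in 122 and replicate 9 in 66. The number of 27-week fish above the middle of the gap was 4 for 58 genes, 5 for 69 and 6 for 32, and it ranged from 1 to 7. No member had all 10 old fish on the same side.

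Spread among old fish was wide in these genes. The SD of log2 CPM over the 10 fish had a median of 1.01 in the 197 genes and 0.27 in all 18153 genes scored. Without replicate 8 the medians were 0.78 and 0.19. Of the 197, 186 were among the 10% of genes with the largest SD at 27 weeks, or 179 without replicate 8. The range from the lowest to the highest of those 9 fish had a median of 4.57-fold in the 197 genes and 1.49-fold in all genes, and at 9 weeks, where the rule chose it, the median range was 4.63-fold. In 103 of the 197 genes the range of the 9 old fish was larger than that of the 10 young ones.

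**Figure D4:**
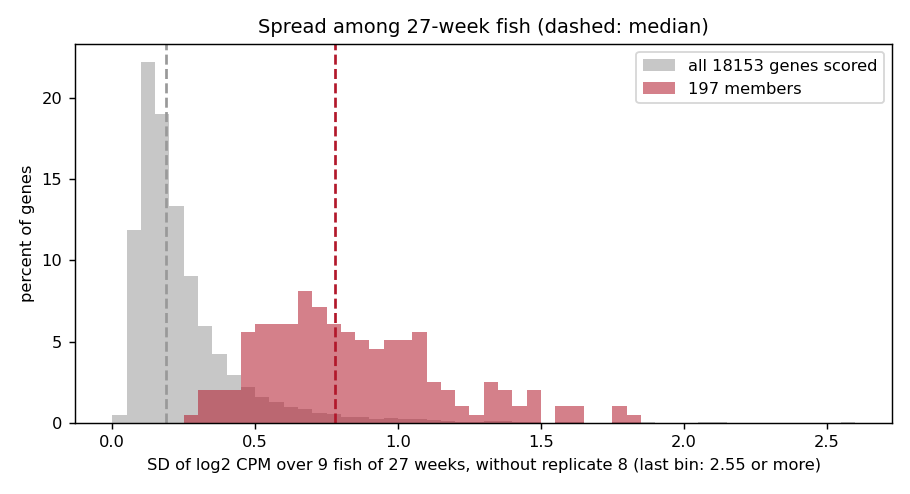
Share of genes, in percent, by the SD of log2 CPM over 9 fish of 27 weeks (without replicate 8), for all 18153 genes scored and for the 197 genes. The medians, drawn as dashed lines, are 0.19 and 0.78.

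Genes with larger gaps in the young fish also varied more in the old ones. The median SD without replicate 8 was 1.03 in the 50 genes with the largest scores of the 197 and 0.61 in the 50 with the smallest, while their median levels were close, at 11.6 and 12.4 CPM. The fish behind the 9-week and 27-week values are different, but both values are of the same genes.

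In level and length the 197 genes were within the bulk of the transcriptome. Their mean level had a median of 12.1 CPM (quartiles 4.62 to 23.7), below the 20.5 CPM (6.73 to 54.1) of all genes scored. Only 8 of the 197 had a mean of at least 100 CPM. Gene length implied by the deposited values had a median of 2535 bp (1347 to 4131) against 2765 bp (1380 to 4790) over all genes scored.

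Summed over the 197 genes, the level was 2840 to 3892 CPM in the first set and 5557 to 8312 CPM in the second. At 27 weeks the sum ran from 828 CPM in replicate 8 to 6879 CPM in replicate 2, and without replicate 8 the lowest was 1957 CPM in replicate 1. The gene with the highest mean supplied 11% to 18.5% of this sum in each fish. That gene thus did not carry the sum alone in any fish, and the shares of the other genes were not computed.

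The 3 genes higher in the first set were Nfu_g_1_017316, Nfu_g_1_017280 and Nfu_g_1_017288. Nfu_g_1_017316 held the largest score of the module and a low level: 3.25, 3.32 and 3.31 CPM in exercised replicates 1, 3 and 5 and 6.37 and 4.04 CPM in unexercised replicates 2 and 5. The second set stood at 0.574 and 0.195 CPM in exercised replicates 2 and 4 and at 0.449, 0.201 and 0.437 CPM in unexercised replicates 1, 3 and 4, from 4 to 20 counts per library. The lowest fish of the first set, at 3.25 CPM, was thus well above the highest of the second, at 0.574 CPM.

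At 27 weeks the values of Nfu_g_1_017316 fell into a high and a low run with no fish between them. Replicates 4, 3, 8 and 9 were at 4.44, 3.98, 3.36 and 3.09 CPM, within or close to the range of the first set. The other 6 fish were at 0.840 to 1.20 CPM, above all 5 fish of the second set. Replicates 3 and 4 were also among the highest fish for the 197 genes, whereas replicates 8 and 9 were among the lowest, so the opposite directions seen at 9 weeks did not hold across the old fish.

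Nfu_g_1_017280 had 31.4 to 44.1 CPM in the first set and 17.8 to 20.5 CPM in the second, and 18.6 to 35.3 CPM at 27 weeks with a median of 29.6 CPM. Nfu_g_1_017288, which falls outside the rule for named genes and is given because it is the third of 3, had 26.1 to 35.1 CPM in the first set and 17.1 to 19.6 CPM in the second. At 27 weeks it ran from 11.7 CPM in replicate 8 to 30.6 CPM in replicate 1, with a median of 22.9 CPM. For both genes the values of the old fish overlapped those of both sets, and the highest young fish was above every old one. For Nfu_g_1_017280 the overlap with the second set rested on replicate 8 alone. The next lowest old fish, replicate 5 at 21.3 CPM, was above all fish of the second set.

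These 3 genes stand close together in the deposited table. Their identifier numbers lie within 36 of each other, from 17280 to 17316, and their rows within 17 of each other, from row 18434 to row 18451 of 26739. Whether neighbouring numbers or rows are neighbouring genes is not given in the sources used here. Genes of the other direction also stood closer in places. Cut into fixed blocks of 200 rows, the fullest block held 9 of the 197 genes. These were 6.04% of its 149 scored genes, against 1.09% of all genes scored.

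The labelled exercise groups were compared next at 9 weeks, in the same fish by whose values the members were chosen. None of the 200 members passed the edgeR quasi-likelihood test at a Benjamini-Hochberg adjusted p below 0.05, and 0 had an unadjusted p below 0.05. Among all 19123 genes tested 0.0994% were called, and 12.1% had an unadjusted p below 0.05. DESeq2 called 0 members and 1.54% of 22867 genes. The rule itself widens the spread within each exercise group, which lowers the number of calls: the median standard error of the log2 fold change was 0.53 in the 197 genes and 0.11 in all genes. Few or no calls were thus largely fixed in advance. The number of members called therefore cannot decide whether exercise bore on the module.

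Exercised against unexercised, the log2 fold changes of the 197 genes ran from -0.52 to 0.47 with a median of -0.09, beside -0.00215 over all genes tested. The sign of that median turned with single fish, since it was 0.0808, 0.0618 and 0.0727 without exercised replicates 1, 3 and 5 and 0.124 and 0.0430 without unexercised replicates 1 and 3. The second set holds exercised replicates 2 and 4 but unexercised replicates 1, 3 and 4. The median and its turns therefore cannot be told apart from the way the rule divided the 2 groups. Nfu_g_1_020553 had 11.4 ± 15 CPM (SD, n = 5) in exercised and 11.8 ± 12.1 CPM (n = 5) in unexercised fish (edgeR log2 fold change -0.02, SE 1.18, adjusted p = 0.998). Nfu_g_1_007046 had 12.6 ± 14.0 CPM (n = 5) and 12.5 ± 10.6 CPM (n = 5; edgeR log2 fold change 0.03, SE 0.90, adjusted p = 0.997). Wide spread within both groups, and a small difference between them, were built into the choice of these genes.

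Age was compared in exercised fish, 27 weeks against 9 weeks. Again 0 of the 200 members were called by edgeR, with 1 at an unadjusted p below 0.05. Among all 19531 genes 2.16% were called and 22.6% had an unadjusted p below 0.05. DESeq2 called 0 members and 7.35% of 22965 genes. Here too the rule widens the spread among the 9-week fish, which lowers the number of calls. The median standard error of the log2 fold change was 0.51 in the 197 genes and 0.13 in all genes. The spread of the 27-week fish enters that error as well. The number of members called therefore cannot decide whether age bore on the module. The log2 fold changes of the 197 genes had a median of -0.36, with 189 below 0, beside a median of 0.01 over all genes. Without 27-week replicate 8 the median was -0.27, with 178 below 0. Young fish moved it more: it was -0.06 without exercised 9-week replicate 2, with 72 genes above 0, and -0.08 without replicate 4, with 61 above 0. It was -0.55 without replicate 1 and -0.55 without replicate 5. The genes were chosen by values of these same 9-week fish and moved together, so the counts below 0 are not counts of independent genes. The fold changes rest on group means, which exercised 9-week replicates 2 and 4 raised. Those 2 fish lay at 0.96 and 0.92 from the middle of the gap and the other exercised young fish at -0.66 or below. The median over the 27-week fish was -0.05, so the middle old fish was not lower than the middle exercised young fish. Whether the negative fold changes follow age or this choice was not tested. Nfu_g_1_020553 stood at 5.70 ± 6.78 CPM (SD, n = 10) at 27 weeks (edgeR log2 fold change -1.05, SE 1.09, adjusted p = 0.590), and Nfu_g_1_007046 at 8.47 ± 7.61 CPM (n = 10; edgeR log2 fold change -0.61, SE 0.79, adjusted p = 0.676). Neither gene passed the test. Their group medians went the other way, at 3.57 CPM at 27 weeks against 0.704 CPM in exercised young fish for Nfu_g_1_020553. For Nfu_g_1_007046 they were 6.44 and 3.12 CPM.

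Against unexercised 9-week fish, where age and exercise both differ, edgeR called 0 of the 200 members, with 6 at an unadjusted p below 0.05. Of all 19591 genes 4.35% were called and 25.3% had an unadjusted p below 0.05. The same limit holds, since the rule chose genes that spread widely among these 9-week fish. The median standard error was 0.47 in the 197 genes and 0.13 in all genes. DESeq2 called 10.1% of 23006 genes and 1 member, Nfu_g_1_000485, named after its value was seen (DESeq2 log2 fold change -1.83, SE 0.64, adjusted p = 0.0426). The 197 genes had a median log2 fold change of -0.48, with 195 below 0, or of -0.36 with 190 below 0 without replicate 8; the median over all genes was 0.01. Without unexercised 9-week replicate 1 the median of the 197 was -0.22, with 172 below 0. Here too the genes were chosen by values of these 9-week fish and moved together, so the counts below 0 are not of independent genes. Nfu_g_1_020553 had an edgeR log2 fold change of -1.09 (SE 0.97, adjusted p = 0.502) and Nfu_g_1_007046 of -0.59 (SE 0.74, adjusted p = 0.640). Both comparisons of age use the same 10 fish of 27 weeks, so their values do not support each other.

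**Figure D5:**
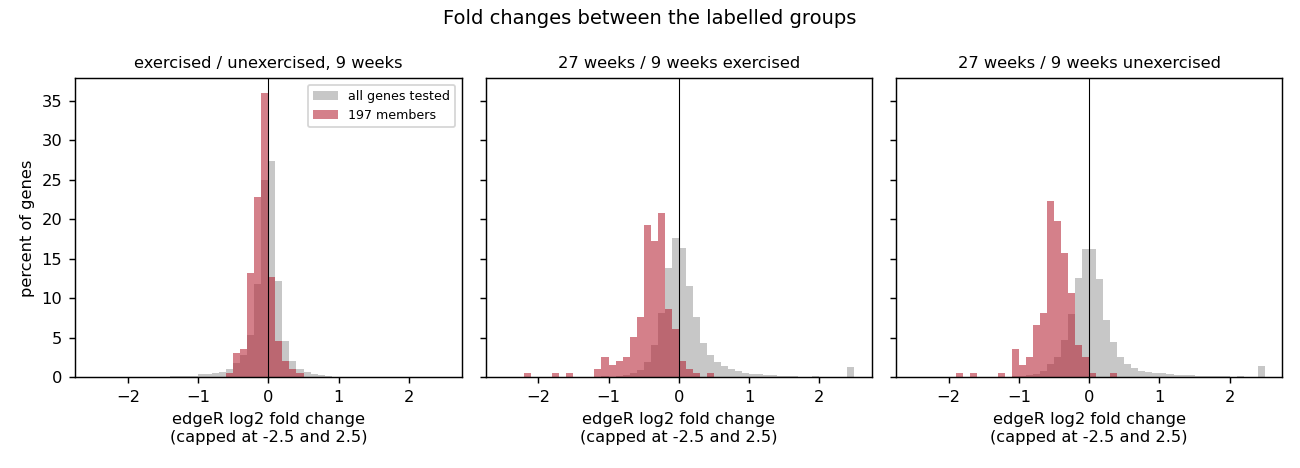
Share of genes, in percent, by edgeR log2 fold change between labelled groups, for all genes tested and for the 197 genes, in the 3 comparisons. The medians of the 197 genes are -0.09, -0.36 and -0.48. None of these genes passed the edgeR test, a count that the choice of the genes lowers.

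The split among 27-week fish followed their listing in part. The median of the 197 genes was above the middle of the gap in replicates 2 to 5 and below it in replicates 6 to 9. Replicates 1 and 10 went the other way, at -1.31 and 0.05. For 1805 of all 18153 genes scored (9.94%), replicates 1 to 5 and replicates 6 to 10 of the 27-week group did not overlap, but this held for 0 of the 200 members. In the 197 genes replicate 1 was low among the first 5 listed, and replicate 10 was above the 27-week median in 167 genes among the last 5. Because 1 fish out of place can make the first 5 and the last 5 overlap, the count of 0 cannot decide whether listing bore on the module.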

How the data were processed

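RNA from killifish brain was sequenced in 20 libraries. The authors deposited raw counts per gene, used here as the measurement, and RPKM values. Per the labels' protocols, library preparation used a TruSeq RNA kit (v2). Tools named in the submitters' processing notes, with no role or order, are featureCounts 1.4.6-p4, STAR 2.4.1d and bcl2fastq 1.8.4. No source used here gives the build, annotation or strand setting, so whether reads of overlapping or near-identical genes were told apart is not known. The deposited RPKM values cycle through the 20 library totals from row to row as divisors: with these totals the implied gene length varied between libraries by a log2 SD of 5.64e-05, against 0.42 with each library's own total (10327 genes with at least 200 counts and 1 RPKM in every library). They served only for gene length. Replicates of a group differed beyond sampling noise (lowest chi-square per degree of freedom 7.57).

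CPM used the column sums. Comparisons between labelled groups used edgeR 4.0.16 in R 4.3.3 (filterByExpr, TMM factors, quasi-likelihood test, two-sided) on the 2 groups compared, adjusted over all genes tested, with DESeq2 1.42.0 as an alternative. The fits were tested on simulated data. The members, lists and tests were chosen with earlier results of these data known. The rule for named genes took the 2 highest scores of each direction. Gene lists and cell type markers needed gene names and were not used. Precision is limited by 5, 5 and 10 libraries per group. Other settings tried were pseudocounts of 0.1 and 1, other scalings, floors and filters, all 20 libraries in the fit, and each replicate left out.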

Additional observations from a re-analysis of the deposited data

Results flagged for a closer look

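The highest or lowest fish of each group was set against its nearest neighbour and the range of the group, for 30 groups of values. A fish stood apart in 3 of them, where chance gives about 1 in 20. Exercised 9-week replicate 2, a fish of the second set, stood apart for its total of 34843199 counts and its 22032 genes with counts, which no other exercised young fish reached. Exercised replicate 4, also of the second set, had 20557058 counts and 21607 genes detected. Both were above those of exercised replicates 1, 3 and 5, at most 18462248 and 21571. Its median over the 197 genes was 0.92 above the middle of the gap beside 0.96 in replicate 2, and the part of depth in these medians was not tested. Replicate 8 of the 27-week group stood apart for the weight of its 10 most counted genes, 10.4% of the library. No fish stood apart within its group for the median or the summed level of the 197 genes, or for any of the 5 genes plotted. At 9 weeks this was largely fixed in advance, since the genes were chosen for a gap inside each exercise group. The rate of 1 in 20 does not apply to those values.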

How the results depend on the processing

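The 4-against-4 score, the floor without 27-week replicate 8 and the fold changes of named genes were chosen after seeing the data. With other pseudocounts, scalings and floors, 72.5% to 100% of the members were among the 200 highest scores, and 197 were higher in the second set each time. Leaving out 1 young fish left 65.5% to 99% of the members (66.5% without unexercised replicate 5, 65.5% without unexercised replicate 4), with 194 to 199 higher in the second set. Without both, 60.5% remained. The number of 27-week fish above the middle was 5 with pseudocounts of 0.1 and 1, with TMM factors and without 27-week replicate 8, the settings tried for it, although replicate 10 came to 0.00306 with TMM factors.

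Members called by edgeR were 0 in all 3 comparisons under every edgeR setting tried, each replicate left out included. DESeq2 called 1 member against unexercised 9-week fish. The choice of the genes lowers these counts under every setting. Leaving out 1 replicate, the median log2 fold change of the 197 genes ran from -0.420 to 0.124 for exercise (0.0808, 0.0618 and 0.0727 without exercised 1, 3 and 5, 0.124 and 0.0430 without unexercised 1 and 3), from -0.550 to -0.0593 for age in exercised fish and from -0.667 to -0.221 against unexercised fish. For exercise, Nfu_g_1_020553 ran from -0.818 to 0.562 and Nfu_g_1_007046 from -0.609 to 0.438, and for age in exercised fish Nfu_g_1_007046 ran from -0.880 to 0.0129; their adjusted p in these fits was 0.352 or more throughout. No paired analysis was possible because GEO's titles give no replicate numbers shared between groups.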

Other observations

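The neighbourhood of the 3 genes higher in the first set was looked at after their values were seen, so the counts are descriptions. Of the 10 genes with the largest scores in that direction, 7 stood within 200 rows of Nfu_g_1_017316 in the deposited table, that gene itself counted. Among the 293 scored genes in those rows, 20 (6.83%) did not overlap between the sets and were higher in the first, against 1.32% of all 18153 genes. Nfu_g_1_017316 is among these 20 as well. The share higher in the second set was 7.17% there and 5.06% over all genes, and 1 of the 197 members stood in those rows. Among fixed, non-overlapping blocks of 200 rows, the fullest for the 197 members was rows 18801 to 19000, with 9 of 149 scored genes (6.04%), against 1.09% of all. What the order of the table stands for was not tested.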
